A study of Mus musculus with 25 samples.

Results

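The cell cycle genes described here are 48 genes chosen by name for their place in the cycle. They fall into cyclins and kinases of G1, the retinoblastoma and E2F proteins, inhibitors of cyclin-dependent kinases (CDKs), genes of DNA replication (S phase), and genes of G2 and mitosis. Of the 48, 44 were measured by a transcript cluster (an Affymetrix probe set for a gene) that carried their symbol alone, out of 18820 named genes measured in this way. The brightest such cluster stood for each gene. The only clusters of Ccne2 and Foxm1 and the 2 clusters of Tyms also carried the symbol of another gene or a pseudogene, and none was listed for Ccnb1, so these 4 were left out.

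Total RNA came from the mammillary neuroepithelium of C57BL/6 mouse embryos at E10.5, the wall of the caudal hypothalamus that later gives rise to the mammillary body (MBO). There were 13 arrays of Lhx5 mutant embryos, which the labels give as Lhx5 KO, and 12 of wild type, each described as a biological replicate. The mutant embryos were homozygous for a floxed Lhx5 allele (Lhx5 fl/fl) with loxP sites around exons 2 to 4. The allele had not been recombined by Cre and all exons were still present. The paper calls it a hypomorph. With an antibody against LHX1 and LHX5, however, it detected no protein in sections of such embryos at a later stage. It also could not tell their loss of the MBO from that after Cre recombination. How much LHX5 function remained in these samples was not measured. The question was whether transcripts of the cell cycle already differ in the mutant at a stage before the MBO becomes smaller. In tissue RNA, fewer cells of a type and less RNA per cell cannot be told apart.

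The mutant arrays came as 2 sets. For every measured cell cycle gene, the mean of mutant replicates 1 to 10 equalled the mean of mutant replicates 11 to 13 to within 3.67e-05 on the log2 scale, and over 35550 probe sets the median absolute difference was 1.33e-06. The mean of mutant replicates 1 to 10 was therefore no separate measurement. Each difference is given from a limma fit with a term for these replicates, so that it is set by mutant replicates 11 to 13 against wild type. Mutant replicates 1 to 10 still enter the estimate of the spread behind its standard error (SE), and the adjusted p without them was 0.226 for Ccnd1 and 0.305 for Cdkn2c, against 0.179 and 0.256 with them. A gene was called at an adjusted p below 0.05 (Benjamini-Hochberg over 28940 clusters). The values are log2 levels made by robust multiarray averaging (RMA), on which a difference of 1 is a doubling. The median of an array was 4.64 to 4.76, and any pair of arrays had a correlation of 0.985 to 0.997. Lhx5 itself stood at 7.97 ± 0.22 (SD, n = 12) in wild type and 7.92 ± 0.32 (n = 13) in the mutant, which is no check of the labels because the allele retains its exons.

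In a dividing neuroepithelial cell, D-type cyclins with Cdk4 and Cdk6, and later E-type cyclins with Cdk2, phosphorylate the retinoblastoma proteins, which releases E2F factors to switch on genes of DNA replication. Genes of G2 and mitosis follow in a later wave, for which the DREAM and MuvB complexes bind a promoter element called the cell cycle homology region (CHR), often next to CCAAT boxes bound by NF-Y. CDK inhibitors of the Cip/Kip and Ink4 families slow or stop this sequence when progenitors leave the cycle to become neurons.

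Promoters of the cell cycle genes were searched for E2F, CHR and CCAAT words. Promoters from 250 before to 50 after the start of transcription (RefSeq, GRCm38.p6), were matched by symbol for 39 of the 48 genes, with 45 promoters in all. Searched on both strands, and with none of the words containing another, an E2F word (TTTCCCGC or TTTGGCGC) stood in 4 of 10 promoters of S phase genes (Mcm3, Mcm5, Mcm6 and Mcm7), in 3 of 8 of Rb and E2F genes (E2f2, E2f3 and E2f7), in 2 of 7 of G1 genes (Cdc25a and Cdk2), and in 0 of 14 of G2 and mitosis genes. Of all 32851 promoters of this length, 1.56% held one. The CHR word TTTGAA stood in 8 of 14 promoters of G2 and mitosis genes (Aurka, Bub1b, Ccnb2, Cdc20, Cdk1, Mki67, Plk1 and Top2a), in 3 of 8 of Rb and E2F genes (E2f2, E2f3 and E2f8), in 1 of 10 of S phase genes (Mcm2) and in 0 of 7 of G1 genes, against 17.9% of all promoters. A CCAAT box stood in 31 of 45 promoters of cell cycle genes, against 37.4% of all, and was common to replication (9 of 10) and mitosis (11 of 14). Of the 6 promoters of CDK inhibitor genes, 0 held an E2F word and 0 held a CHR word. A match describes letters and does not show that a factor binds.

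The following stretches of 200 bases, 5′ to 3′ on the strand of the gene and with their last 30 bases after the start of transcription, are shown because Mcm3 and Mcm6 carry the E2F word of the replication genes, and Cdk1 and Ccnb2 the CHR word of the mitotic genes. Capitals mark the E2F words, TTTGAA and CCAAT on either strand.
Mcm3, chr1:20820283-20820482, minus strand: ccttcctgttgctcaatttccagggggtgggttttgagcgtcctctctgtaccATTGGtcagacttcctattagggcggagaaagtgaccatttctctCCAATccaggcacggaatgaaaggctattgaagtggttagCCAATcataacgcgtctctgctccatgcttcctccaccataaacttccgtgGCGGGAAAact
Mcm6, chr1:128359676-128359875, minus strand: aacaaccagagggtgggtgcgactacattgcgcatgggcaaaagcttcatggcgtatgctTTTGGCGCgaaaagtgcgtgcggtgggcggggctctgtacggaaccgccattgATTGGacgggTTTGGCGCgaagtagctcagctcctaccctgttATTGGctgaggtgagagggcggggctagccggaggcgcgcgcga
Cdk1, chr10:69352883-69353082, minus strand: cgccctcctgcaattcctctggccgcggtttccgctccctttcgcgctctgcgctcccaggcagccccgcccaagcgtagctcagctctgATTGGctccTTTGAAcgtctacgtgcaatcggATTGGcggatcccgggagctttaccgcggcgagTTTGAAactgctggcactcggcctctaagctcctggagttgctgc
Ccnb2, chr9:70421525-70421724, minus strand: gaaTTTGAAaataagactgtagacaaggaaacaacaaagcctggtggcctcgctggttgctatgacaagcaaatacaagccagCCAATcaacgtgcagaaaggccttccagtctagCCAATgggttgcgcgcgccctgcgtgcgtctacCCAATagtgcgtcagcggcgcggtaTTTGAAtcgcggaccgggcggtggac
The E2F words TTTGGCGC of Mcm6 began at positions -110 and -47 from the start, and that of Mcm3 (GCGGGAAA, the reverse strand of TTTCCCGC) at position 20. Mcm3 had another E2F word at position 39, beyond the stretch printed. The CHR words of Cdk1 began at positions -71 and -15, and those of Ccnb2 at positions -167 and 5, with 3 CCAAT boxes between them.

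None of the 44 cell cycle genes was called between mutant and wild type, with adjusted p from 0.179 to 0.995 in limma. Over all clusters, 0.0242% were called. At an unadjusted p below 0.05 there were 5 genes, of which Ccnd1, Rbl1, Rrm2 and Cdk2 were lower in the mutant and Cdkn2c higher. These are 11.4% of the genes measured, against 10.3% of all clusters, so that the share in both directions together lay near the background. By direction, 4 of 44 genes were lower and 1 of 44 was higher, against 4.15% and 6.20% of all clusters. Of the 14470 clusters above the median level, 9.57% had an unadjusted p below 0.05 in limma (904 lower and 481 higher). Brighter clusters thus also leaned to the lower side. With genotype alone, which counts mutant replicates 1 to 10 as separate evidence, 7 of 44 were called (the same 5 genes with Cdc25a and Rb1), or 15.9% against 16.7% of all clusters. Of these, 6 were lower and 1 was higher, where 6.99% of all clusters were lower and 9.68% higher. Of the 14470 clusters above the median level, this fit called 15.7% (1501 lower and 773 higher). With mutant replicates 11 to 13 and wild type alone, 0 were called against 0.0207% of all clusters. No cell cycle gene had all 3 mutant arrays 11 to 13 on one side of every wild-type array, against 1.15% of all clusters (0.536% above and 0.619% below). The median difference over the 44 genes was -0.04, against 0.01 over all clusters and -0.02 over clusters above the median level.

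Each interval gives a range for the difference of a single gene, with no allowance for the number of genes. For 43 of 44 genes, the 95% interval of the difference lay within 1.5-fold in either direction, as it did for 92.1% of all clusters. The exception was Cdkn2c, with an upper bound of 0.71. For 31 of 44 genes, the interval lay within 1.2-fold, as it did for 12447 of all 28940 clusters and 6890 of the 14470 above the median level. By role the 31 genes were 14 of 16 of G2 and mitosis, 8 of 9 of S phase and 5 of 8 of G1. They also held 3 of 7 of the Rb and E2F proteins and 1 of 4 CDK inhibitors. The width of an interval follows the SE of its gene.

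**Figure D1:**
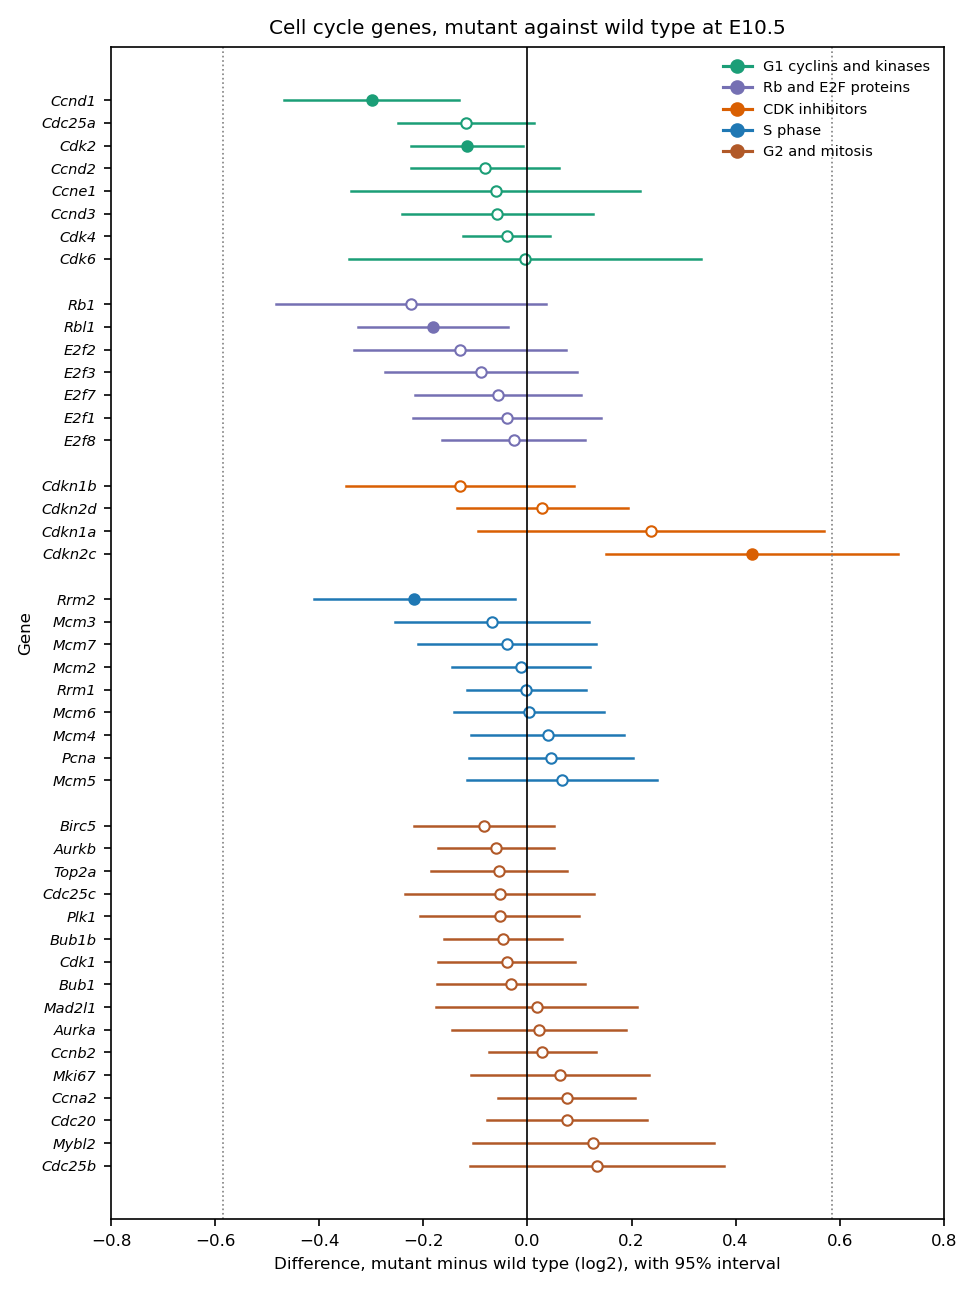
Mutant minus wild type (x axis, log2 difference with 95% interval) for each of the 44 measured cell cycle genes (y axis), coloured by role; filled circles have an unadjusted p below 0.05 in limma, open circles do not, and dotted lines mark 1.5-fold. The differences of G1 and of Rb and E2F genes lie at or left of 0, those of S phase and mitotic genes on either side of it, and only the interval of Cdkn2c passes a dotted line.

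The cyclins and kinases of G1 all had a difference below 0 (8 of 8, median -0.07), of which Ccnd1 and Cdk2 had an unadjusted p below 0.05. Of 14470 clusters above the median level, 8645 also lay below 0. Genes measured on the same 3 mutant arrays are not independent of each other. Ccnd1 encodes cyclin D1, which couples growth signals to entry into the cycle. It stood at 10.90, 10.59 and 10.87 on mutant arrays 11, 12 and 13, at 10.87 to 11.30 (median 11.07) on the wild-type arrays, and at 10.57 to 10.91 (median 10.82) on mutant arrays 1 to 10. All 3 mutant arrays lay below the wild-type mean, but only array 12 lay below every wild-type array. The difference of Ccnd1 was -0.30 ± 0.08 (SE, adjusted p = 0.179 in limma), or 1.23-fold lower. Its exact permutation p was 0.00659 over the 455 splits of the 15 arrays into 3 and 12, two-sided, of which the smallest possible is 0.0022. Exact p-values are unadjusted throughout. For genes chosen by their limma p on the same arrays, they are no separate evidence. It ran from -0.35 without mutant array 11 to -0.20 without mutant array 12.

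The other D-type cyclins also overlapped with wild type. Ccnd2, whose cyclin D2 is also used by neural progenitors, stood at 11.48, 11.44 and 11.53 on mutant arrays 11 to 13 and at 11.32 to 11.74 (median 11.59) on wild-type arrays, and 2 wild-type arrays lay within the mutant range. The difference was -0.08 ± 0.07 (adjusted p = 0.739 in limma, exact permutation p = 0.235). Ccnd3, of cyclin D3, stood at 9.46, 9.60 and 9.50 against 9.35 to 9.77 (median 9.57), with 5 wild-type arrays within the mutant range. Its difference was -0.06 ± 0.09 (adjusted p = 0.870 in limma, exact permutation p = 0.448). That Ccnd1 differed more than Ccnd2 or Ccnd3 was not tested.

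Cdk2, the kinase partner of cyclins E and A, stood at 8.12, 8.07 and 8.10 on mutant arrays 11 to 13 and at 8.09 to 8.36 (median 8.23) on wild-type arrays. All 3 mutant arrays lay below the wild-type mean and 2 wild-type arrays lay among them. The difference was -0.12 ± 0.05 (adjusted p = 0.441 in limma, exact permutation p = 0.011), and its unadjusted p was 0.117 without mutant array 12. The remaining genes of the group were the phosphatase gene Cdc25a, which activates Cdk2 (-0.12 ± 0.06), Ccne1, encoding cyclin E1 (-0.06 ± 0.14), and the kinase genes Cdk4 (-0.04 ± 0.04) and Cdk6 (-0.01 ± 0.16). Cdk4 varied the least of all 44 genes among wild-type arrays (SD 0.0435), so its interval was also among the narrowest, from -0.12 to 0.04.

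All 7 genes of the Rb and E2F group had a difference below 0 (median -0.09), beside 8645 of 14470 clusters above the median level. Rbl1 encodes p107, a relative of the retinoblastoma protein that holds back E2F genes. It stood at 7.76, 7.65 and 7.69 on mutant arrays 11 to 13 and at 7.74 to 8.002 (median 7.87) on wild-type arrays, so that 2 of the 3 mutant arrays lay below every wild-type array. On mutant arrays 1 to 10 it ran from 7.54 to 7.93. The difference was -0.18 ± 0.07 (adjusted p = 0.343 in limma, exact permutation p = 0.0044), and the second, dimmer cluster of Rbl1 gave -0.22 ± 0.10. Without mutant array 12 its unadjusted p was 0.0753.

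The retinoblastoma gene Rb1 had a difference of similar size and a wider error, -0.22 ± 0.13, with an interval from -0.48 to 0.04. Among the activating E2F genes the difference was -0.04 ± 0.09 for E2f1, -0.13 ± 0.10 for E2f2 and -0.09 ± 0.09 for E2f3, and the second cluster of E2f3 also gave -0.09. The repressors E2f7 and E2f8 stood at -0.06 ± 0.08 and -0.03 ± 0.07. None of these passed an unadjusted p of 0.05.

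Neural progenitor genes lay on the same side as the G1 and Rb genes. Of 9 markers, 9 had a difference below 0 (median -0.18) and 0 were called. So had 8645 of 14470 clusters above the median level. The largest were those of Pax6 (-0.73) and Sox1 (-0.71), and the smallest those of Fabp7 (-0.07), Vim (-0.04), Nes (-0.03) and Hes1 (-0.02). Of 7 markers of mammillary and hypothalamic neuroepithelium, 4 lay below 0 and 3 above (median -0.04). The summed level of the 9 progenitor markers on the linear scale ran from 11144 to 13287 on mutant arrays 11 to 13 and from 11282 to 14698 on wild-type arrays. Sox3 was the dimmest of them (6.98 in wild type). The part of progenitor content in the differences of G1 and Rb genes was not tested.

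Of the 4 CDK inhibitors measured among the 48 genes, 3 had a difference above 0 (median 0.13). Cdkn2c encodes p18 (Ink4c), which binds Cdk4 and Cdk6 and marks progenitors about to leave the cycle. It stood at 5.76, 5.69 and 5.65 on mutant arrays 11, 12 and 13, and at 4.60 to 5.76 (median 5.29) on wild-type arrays. Cdkn2c was the dimmest of the cell cycle genes measured (mean 5.49 over all arrays). Its lowest wild-type value lay below the array medians of 4.64 to 4.76, so its level was low on this scale. Mutant array 11 lay just above the highest wild-type array (replicate 7), and that array lay above the other two. On mutant arrays 1 to 10 it ran from 5.38 to 5.94. The difference was 0.43 ± 0.14 (adjusted p = 0.256 in limma, exact permutation p = 0.0242), or 1.35-fold higher, and 0.37 without wild-type replicate 11, which had the lowest value.

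Cdkn2c was also the cell cycle gene that varied most within wild type (SD 0.275, n = 12). Wild-type replicate 7, its highest array, had the highest level of postmitotic neuron markers, with a mean of 0.602 above the wild-type mean over 10 measured markers, and wild-type replicate 11, its lowest array, had the lowest, at -1.01. On mutant arrays 11 to 13 the neuron markers ran from -0.296 to -0.006, and 10 of 10 had a difference below 0 (median -0.18, 0 called). So had 8645 of 14470 clusters above the median level. The summed level of the neuron markers on the linear scale was 2950 to 3671 on mutant arrays 11 to 13 and 1852 to 6160 on wild-type arrays. The dimmest was Nhlh2 (5.95 in wild type). The part of neuron content in the difference of Cdkn2c was not tested.

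The other inhibitors also overlapped with wild type. Cdkn1a, encoding p21, had a difference of 0.24 ± 0.16, which was 0.07 without mutant array 12. Cdkn1b, encoding p27, stood at -0.13 ± 0.11 and its dim second cluster at -0.05. Cdkn2d, encoding p19 (Ink4d), stood at 0.03 ± 0.08. None had an unadjusted p below 0.05. Cdkn1c, encoding the related inhibitor p57, was not among the 48 genes but in a wider list of cell cycle genes, and is named here after its value was seen. Its difference was -0.24 ± 0.15 (adjusted p = 0.598 in limma), below 0 like that of Cdkn1b.

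**Figure D2:**
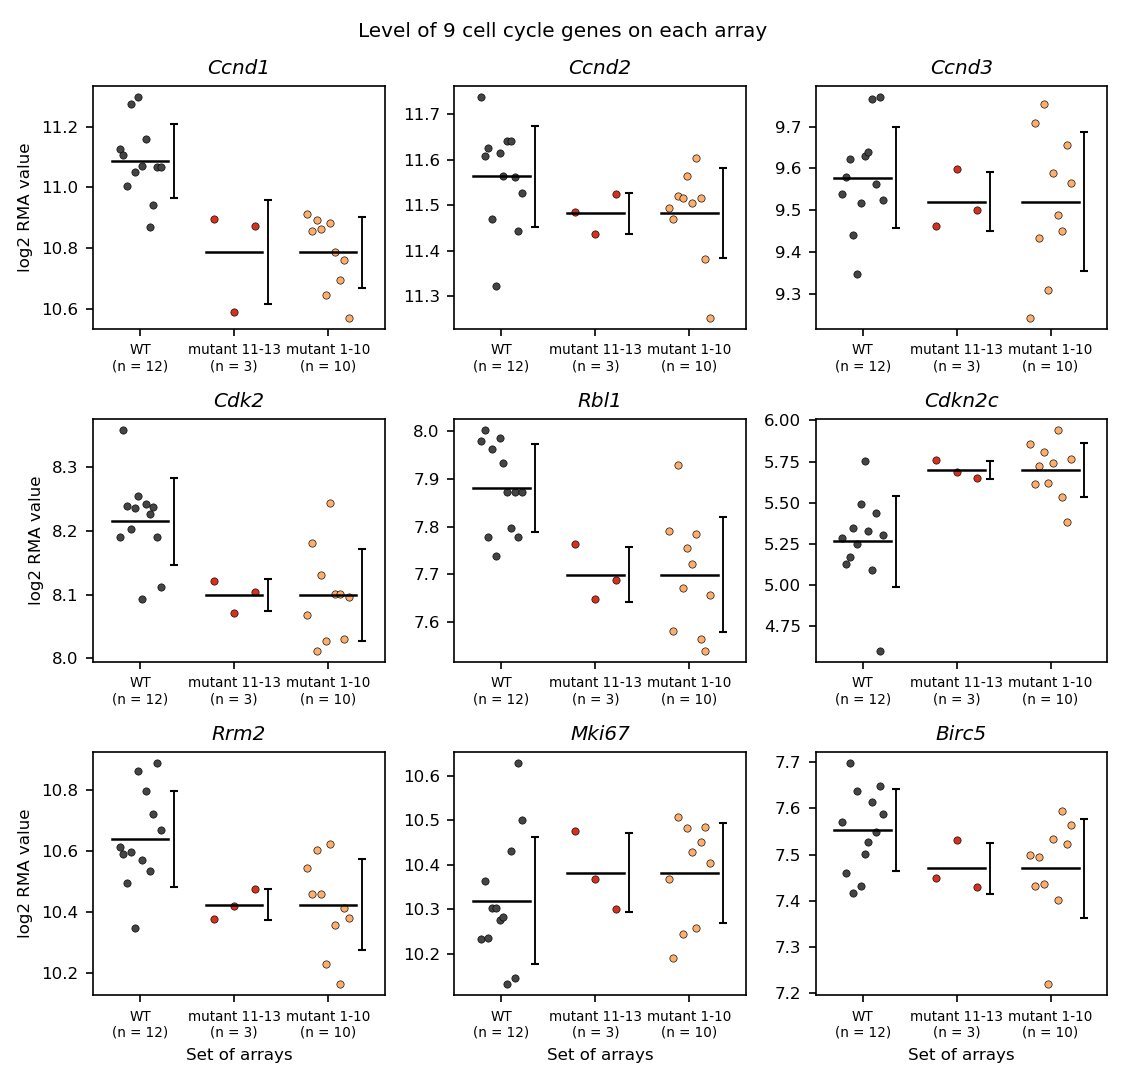
Level (y axis, log2 RMA value) of 9 cell cycle genes on each array, for wild type (grey), mutant replicates 11 to 13 (red) and mutant replicates 1 to 10 (orange); horizontal lines are means and error bars SD. Each gene has its own y axis, the means of the 2 mutant sets coincide, and the mutant arrays 11 to 13 of Ccnd1, Cdk2, Rbl1 and Rrm2 lie in or below the lower part of the wild-type range.

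Genes of S phase lay on either side of 0, and 1 of them had an unadjusted p below 0.05. Of 9 genes, 5 were below 0 and 4 above (median -0.00). The subunits of the replicative helicase stood at -0.01 ± 0.06 (Mcm2), -0.07 ± 0.09 (Mcm3), 0.04 ± 0.07 (Mcm4), 0.07 ± 0.09 (Mcm5), 0.00 ± 0.07 (Mcm6) and -0.04 ± 0.08 (Mcm7). Their intervals reached at most from -0.25 (Mcm3) to 0.25 (Mcm5). Pcna, the sliding clamp of the polymerases, stood at 0.04 ± 0.08, and its second cluster gave 0.05. Rrm1, the large subunit of ribonucleotide reductase, stood at -0.00 ± 0.06.

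That gene was Rrm2, the small subunit of ribonucleotide reductase, whose level limits the supply of deoxynucleotides in S phase. It stood at 10.38, 10.42 and 10.48 on mutant arrays 11 to 13 and at 10.35 to 10.89 (median 10.60) on wild-type arrays. All 3 mutant arrays lay below the wild-type mean, with 1 wild-type array below all of them and 11 above all of them. On mutant arrays 1 to 10 it ran from 10.16 to 10.62. The difference was -0.22 ± 0.09 (adjusted p = 0.417 in limma, exact permutation p = 0.0396), and its unadjusted p was 0.101 without mutant array 11. The difference between Rrm2 and Rrm1 in this respect was not tested.

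Genes of G2 and mitosis were spread evenly around 0, with 8 of 16 below and 8 above (median -0.01), and 0 had an unadjusted p below 0.05. Mki67, which encodes the proliferation antigen Ki67, stood at 10.48, 10.37 and 10.30 on mutant arrays 11, 12 and 13 and at 10.13 to 10.63 (median 10.29) on wild-type arrays, with 4 wild-type arrays inside the mutant range. Its difference was 0.06 ± 0.08 (adjusted p = 0.850 in limma, exact permutation p = 0.497), with an interval from -0.11 to 0.23. Birc5, encoding survivin of the chromosomal passenger complex, had the smallest p of the group. It stood at 7.45, 7.53 and 7.43 against 7.42 to 7.70 (median 7.56) in wild type, with 4 wild-type arrays inside the mutant range, and its difference was -0.08 ± 0.07 (adjusted p = 0.709 in limma, exact permutation p = 0.154).

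The mitotic cyclins Ccna2 and Ccnb2 stood at 0.08 ± 0.06 and 0.03 ± 0.05, and their kinase Cdk1 at -0.04 ± 0.06. Phosphatases that activate Cdk1 stood at 0.13 ± 0.12 (Cdc25b) and -0.05 ± 0.09 (Cdc25c). Mitotic kinases stood at 0.02 ± 0.08 (Aurka), -0.06 ± 0.05 (Aurkb) and -0.05 ± 0.07 (Plk1). Spindle checkpoint genes stood at -0.03 ± 0.07 (Bub1), -0.05 ± 0.06 (Bub1b) and 0.02 ± 0.09 (Mad2l1, with 0.16 ± 0.13 on its second cluster), and Cdc20, the activator of the anaphase-promoting complex, at 0.08 ± 0.07. Top2a, which untangles chromosomes, stood at -0.05 ± 0.06, and Mybl2, whose protein B-Myb binds the MuvB complex, at 0.13 ± 0.11. On the brightest clusters, the bound farthest from 0 among these genes was 0.38 (Cdc25b).

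**Figure D3:**
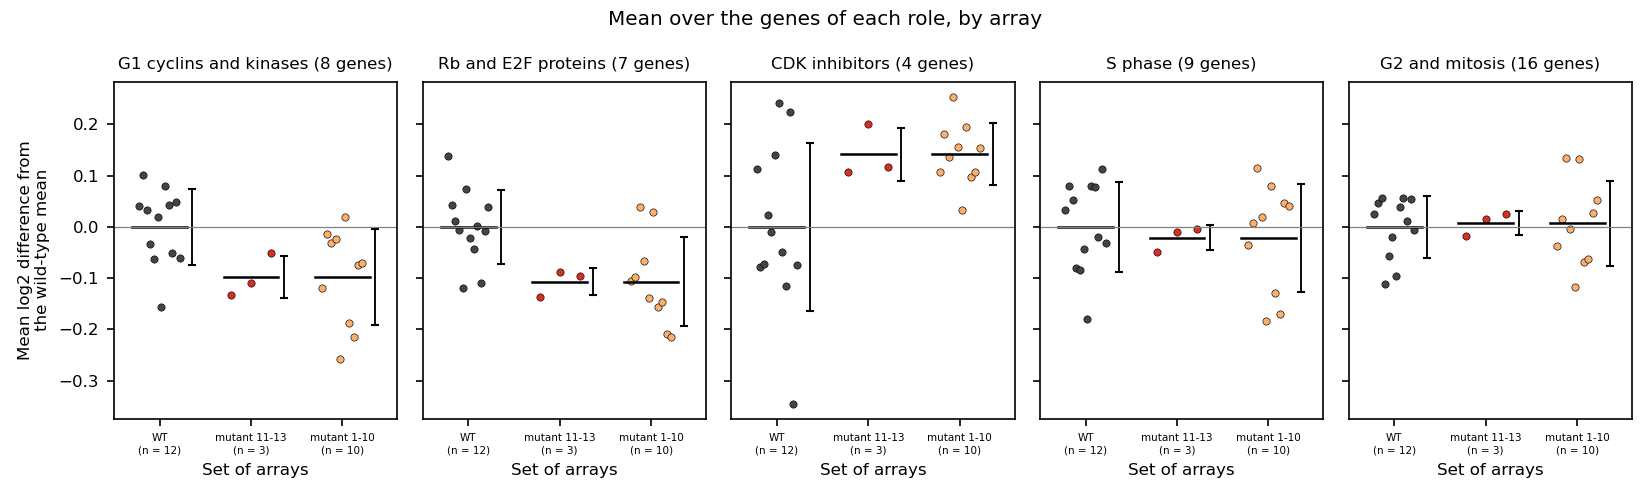
Mean over the genes of each role on each array (y axis, log2 difference from the wild-type mean of each gene) for the 12 wild-type arrays, the 3 mutant arrays 11 to 13 and the 10 mutant arrays 1 to 10; horizontal lines are means and error bars SD. The S phase means of mutant replicates 11 to 13 run from -0.049 to -0.004, inside the wild-type range of -0.179 to 0.114, and those of G2 and mitosis from -0.018 to 0.025.

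Averaged over each role, the mutant arrays 11 to 13 lay inside the wild-type range for G1 genes, CDK inhibitors, S phase, and G2 and mitosis. Their means of G1 genes ran from -0.132 to -0.052 and those of CDK inhibitors from 0.107 to 0.201, against -0.157 to 0.1005 and -0.344 to 0.241 in wild type. For the Rb and E2F genes, they ran from -0.136 to -0.088 against -0.119 to 0.138. Mutant array 11 lay below the lowest wild-type array there.

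Most of the cell cycle genes varied less between wild-type arrays than the median cluster. The median SD over 12 wild-type arrays was 0.112 for the 44 genes. It was 0.143 for all clusters and 0.135 for clusters above the median level. Of the 44 genes, 32 lay below the median of all clusters. Beyond the cut at the median level, the clusters were not matched to these genes in level. Cdk4 (0.0435), Ccnb2 (0.0467) and E2f8 (0.0556) varied least, and Cdkn2c (0.275), Cdkn1a (0.248) and Cdk6 (0.238) most.

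What variation there was ran together within S phase. Across the 12 wild-type arrays, the median correlation between 2 S phase genes was 0.71 (35 of 36 pairs above 0), and across mutant replicates 1 to 10 it was 0.67 (36 of 36 above 0). Between S phase and mitotic genes it was 0.49 and 0.58, and among mitotic genes 0.36 and 0.48. A cell cycle gene and any other cluster had a median correlation of 0.02 in wild type and 0.00 in mutant replicates 1 to 10. Without the 2 arrays farthest from the median S phase mean in each set, S phase pairs had medians of 0.60 and 0.55. Genes on 1 array share its RNA, its normalization and its dissection, and these correlations are descriptions with no test. The processing that set the means of mutant replicates 1 to 10 is not given in the sources used here, and its effect on how these arrays vary together was not tested.

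Several genes outside the S phase list followed it. Against the mean of the S phase genes in wild type, E2f3 had a correlation of 0.92, Mybl2 of 0.90, Ccne1 of 0.89, Bub1b of 0.87 and Aurka of 0.87, and in mutant replicates 1 to 10 these were 0.85, 0.88, 0.86, 0.81 and 0.83. Rrm2 did not follow the other S phase genes in wild type (0.13) but had a correlation of 0.79 in mutant replicates 1 to 10. Ccnd1 had -0.25 and 0.44. Whether the correlations differed between wild type and mutant was not tested.

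The CDK inhibitors ran against S phase in wild type. Of 36 pairs between an inhibitor and an S phase gene, 1 had a correlation above 0 in wild type (median -0.41), and 16 did in mutant replicates 1 to 10 (median -0.02). Cdkn2c had a correlation of -0.78 with the S phase mean in wild type and 0.01 in mutant replicates 1 to 10. Its value without wild-type replicates 7 and 11, its highest and lowest arrays, was not computed. The wild-type array with the lowest S phase mean was replicate 7 and the one with the highest was replicate 11, the arrays with the most and the least of the neuron markers. Wild-type replicate 11 was also the lowest wild-type array for endothelial (-0.698) and cranial mesenchyme markers (-0.610) and the highest for erythroid markers (0.788). Without these arrays, 7 of 36 pairs lay above 0 in wild type (median -0.35). Without mutant arrays 5 and 8, the farthest in S phase mean of their set, 15 of 36 did (median -0.20), so that the values of the sets lay closer together.

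**Figure D4:**
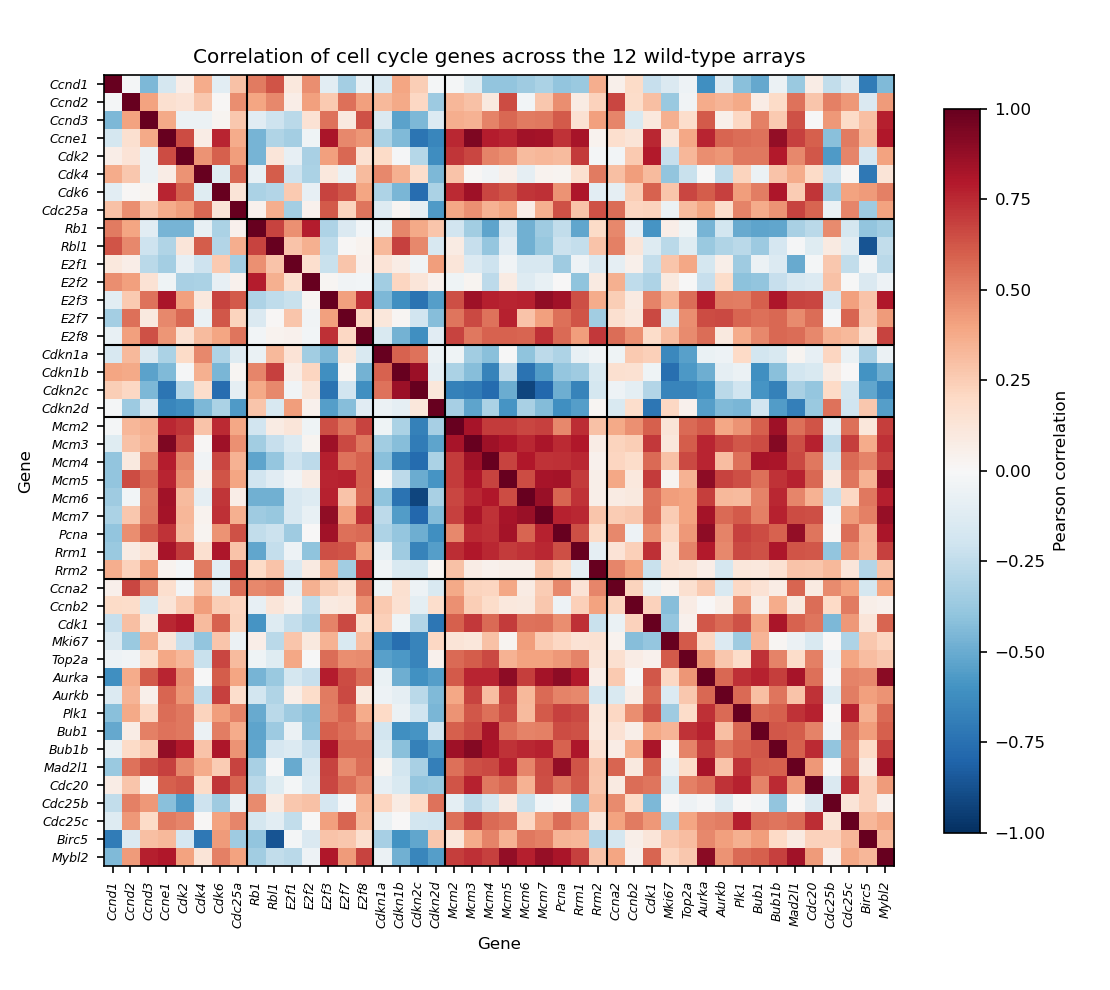
Pearson correlation (colour) between each pair of the 44 cell cycle genes (both axes, ordered by role, with lines between roles) across the 12 wild-type arrays. The block of S phase genes is red except for Rrm2, it extends to Ccne1, E2f3, Aurka, Bub1b and Mybl2, and the rows of CDK inhibitors are mostly blue against it.

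A wider list held 123 other cell cycle genes for origin licensing, the replication fork, the kinetochore, the spindle, chromosome condensation and ubiquitin ligases. Of these, 113 were measured and 0 were called. At an unadjusted p below 0.05 there were 3, or 2.65%. The share was 10.3% of all clusters and 9.57% of clusters above the median level. All 3 genes were lower in the mutant. They were Cdc7, a kinase that fires origins (-0.25 ± 0.08, adjusted p = 0.274 in limma), Orc4, of the origin recognition complex (-0.19 ± 0.07), and Prc1, which bundles the central spindle (-0.16 ± 0.07). For Cdc7 and Prc1, 2 of the 113 genes, all 3 mutant arrays 11 to 13 lay below every wild-type array, as they did for 0.619% of all clusters. Next by p came Pole2, a subunit of DNA polymerase epsilon (-0.19 ± 0.10), the kinesin gene Kif15 (-0.14 ± 0.07) and the checkpoint kinase gene Chek1 (-0.13 ± 0.07). Over the list, 83 genes had a difference below 0 and 30 above, with a median of -0.04, against -0.02 for clusters above the median level. Of those clusters, 8645 of 14470 lay below 0. With genotype alone, 7 of 113 were called, all lower, or 6.19% against 16.7% of all clusters (6.99% lower). Of the 14470 clusters above the median level, this fit called 1501 lower and 773 higher.

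Markers of other tissues lay on the other side of 0 from the progenitor markers. Of 7 measured erythroid markers, 7 were above 0 (median 0.36), with a summed linear level of 13228 to 15787 on mutant arrays 11 to 13 and 10702 to 18076 on wild-type arrays. Endothelial markers were above 0 in 8 of 8 (median 0.11, summed level 1647 to 2131 against 1013 to 1847), cranial mesenchyme markers in 8 of 9 (median 0.13, 1850 to 2732 against 1310 to 2448) and surface ectoderm markers in 7 of 7 (median 0.26, 736 to 1205 against 501 to 1011). None was called. Of all 28940 clusters, 14983 lay above 0, and of the 14470 above the median level, 5825 did. The dimmest ectoderm marker, Grhl2 (4.19 in wild type), lay below the array medians of 4.64 to 4.76, and the dimmest erythroid marker was Gata1 (4.97). The part of these tissues in the differences of the cell cycle genes was not tested.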

How the data were processed

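The authors hybridised RNA to Affymetrix Mouse Gene 1.1 ST arrays and deposited log2 RMA values. The submitters' processing notes list RMA, affy, R 2.7.0 and Affymetrix Expression Console 1.0. In 10 of the 25 deposited columns isolated cells lay far above the log2 range, so those columns were recorded as a mixed scale, and 14 cells above 14 were set missing (0 in cell cycle genes). Of 35556 probe sets, 6616 with an identifier below the first annotated one were left out and 28940 tested. Of the clusters tested, 5841 had no gene symbol. Clusters were named from GEO's platform annotation.

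With limma 3.58.1 in R 4.3.3, a model of genotype and a term for mutant replicates 1 to 10 was fitted to each cluster, which was called at an adjusted p below 0.05 (Benjamini-Hochberg, two-sided). The term made standard errors 1.65 times larger than genotype alone (median). Single genes, some of them chosen by their limma p, were also compared by an exact permutation test, whose p-values are unadjusted. The fits were tested on simulated data. All cell cycle genes were named, and values by array were given for those with p below 0.05, the smallest p of each role, the D-type cyclins and Mki67. From the wider list, up to 6 genes with the smallest p were named. The genes and lists were chosen with earlier results of these data known. The number of arrays limits precision, and p-values measure the spread between these samples. Alternatives were genotype alone, mutant replicates 11 to 13 with wild type, a replicate block, repeated quantile normalization, median centring, dim clusters left out, array weights, limma-trend, no moderation, the mean of a gene's clusters, a 1.5-fold threshold and each array left out. Python 3.11.15 with matplotlib 3.10.9 made the figures.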

Additional observations from a re-analysis of the deposited data

How the results depend on the processing

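No cell cycle gene was called under any alternative but genotype alone, which called 7 of the 44 genes and 7 of the wider list and gave 10 at an unadjusted p below 0.05. Each array left out in turn gave 0 called genes in either list, 2 (without mutant array 12) to 6 (without wild-type array 5) genes at an unadjusted p below 0.05, against 5 with all arrays and 3 without mutant array 11, and a median difference from -0.05 to -0.03. Array weights gave 7 such genes. Without mutant array 12, Ccnd1 and Cdkn2c still had an unadjusted p below 0.05, and Rbl1, Rrm2 and Cdk2 did not. Ccnd1 and Cdkn2c had one in 25 of 25 fits with an array left out and in 10 of 10 other fits, but leaving out one of mutant arrays 1 to 10 cannot move a difference, so 15 of the 25 bear on it.

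Replicate numbers did not pair the samples. Arrays of the same number had correlations of -0.33 to 0.43 after removal of group means, above 0.1 for 4 of 12 numbers. With the number as a replicate block, 0 cell cycle genes were called, 4 had an unadjusted p below 0.05, the median difference was -0.05 and the wider list had 0 calls. By its construction this fit takes each difference from the pairs of replicates 11 and 12 alone, since mutant array 13 has no partner and mutant arrays 1 to 10 have the term. The difference of Cdkn2c was then 0.77, of Cdkn1a 0.72 and of Rrm2 -0.38, and wild-type array 11 of the first pair has the lowest Cdkn2c value. At an unadjusted p below 0.05 and 1.5-fold, 0 genes passed. Only 3 mutant arrays carry the comparison, so a gene not called is not shown to be unchanged.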
